A study of Mus musculus with 12 samples.

Results

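Resident macrophages of the perinatal mouse liver, the Kupffer cells and the macrophages at the centre of erythroblastic islands, were described here in single-cell RNA libraries made just before and just after birth. A cell was taken as a macrophage when it carried at least 5 unique molecular identifiers (UMIs, 1 per captured RNA molecule) of the 3 complement C1q genes C1qa, C1qb and C1qc together, and at least 2 UMIs of Clec4f, Vsig4, Cd5l, Marco and Timd4 together. Barcodes with fewer than 1000 UMIs or with more than 15% mitochondrial UMIs were left out first. The gate held 9195 of the 184493 barcodes that passed in 9 libraries. Because the gate is a cut on measured UMIs, it marks a range of cells and does not separate Kupffer cells from island macrophages.

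The livers came from crosses of Jag1Ndr/+ mice, so that all 3 genotypes, Jag1+/+, Jag1Ndr/+ and Jag1Ndr/Ndr (written Jag1Ndr/Nd in the strain field), were bred the same way. Jag1 encodes a Notch ligand, and the Nodder allele Ndr is a missense allele carried in the germ line, hence by every cell of the animal. Livers were taken before birth on embryonic day E16.5 and on postnatal day 3 (P3), and at P3 the homozygous pups were picked by their jaundice. Both stages were dissociated enzymatically, but TrypLE was added at E16.5 only, and microbeads then removed dead cells. How many animals went into a library is not given in the sources used here, so p-values measure the spread between these libraries, which may be partly technical.

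Of 12 deposited samples, 9 libraries were used. At E16.5 the second replicates of Jag1+/+ and of Jag1Ndr/+ held the same matrix, value for value, and entered once as a shared library. With replicate 1 of either genotype and both Jag1Ndr/Ndr libraries this gave 5 libraries. At P3 the files went against their labels. The library labelled Jag1+/+ replicate 1 (here A) had 19927 of its barcodes in the sample labelled Jag1Ndr/Ndr replicate 1 and 18105 in Jag1Ndr/Ndr replicate 2, and the library labelled Jag1+/+ replicate 2 (here B) had 16145 of its barcodes in Jag1Ndr/Ndr replicate 2 and held all 15754 of Jag1Ndr/+ replicate 2. The genotype of A and B is therefore unclear. Library C is Jag1Ndr/Ndr replicate 1 without the barcodes of A, and library D is Jag1Ndr/+ replicate 1. Among gated cells, no pair of the 9 libraries shared more than 2 barcodes. Below, values at E16.5 are given first for Jag1+/+ replicate 1, then for the library held in common and for Jag1Ndr/+ replicate 1, and last for the Jag1Ndr/Ndr pair in order of replicate, and values at P3 follow the order A, B, C, D. Levels are in CPM, the field's usual unit of a gene's UMIs summed over the gated cells of a library and scaled to a common library total, without scaling for gene length, since a 3' UMI count does not grow with length.

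Kupffer cells line the liver sinusoids, take up particles, microbes and aged red cells from portal blood, and recycle their iron. They descend from embryonic progenitors that reach the liver before birth. While the fetal liver still makes blood, macrophages there hold maturing erythroblasts in erythroblastic islands through adhesion molecules such as Vcam1, supply growth signals and engulf and digest the nuclei that the erythroblasts expel. C1qa, C1qb and C1qc form the first component of the classical complement pathway. Clec4f is a C-type lectin largely restricted to Kupffer cells, Vsig4 a receptor for complement fragments, Marco a scavenger receptor, Timd4 a receptor for phosphatidylserine on dying cells, and Cd5l a secreted protein of tissue macrophages.

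Promoters of gate genes are shown first because the gate rests on them and because their genes differed between stages to unlike degrees, as given below. The 4 windows hold the 250 bases before the annotated start (RefSeq, GRCm38.p6), and 7 of the 8 gate genes had one. Capitals mark the PU.1 core GAGGAA, a motif of the myeloid factor encoded by Spi1, and the sequence TGCTGA recognised by MAF factors, each on either strand. The 2 motifs can overlap by 2 bases, and a window counts once for each. Vsig4 and Clec4f had the largest stage difference of the gate genes, and Timd4 and Cd5l the smallest.
Vsig4, chrX:96293439-96293688, minus strand: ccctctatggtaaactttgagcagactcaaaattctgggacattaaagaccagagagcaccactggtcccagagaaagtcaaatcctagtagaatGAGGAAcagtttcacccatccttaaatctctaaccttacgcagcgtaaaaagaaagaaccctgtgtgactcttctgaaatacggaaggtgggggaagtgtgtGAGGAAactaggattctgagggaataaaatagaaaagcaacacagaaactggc
Clec4f, chr6:83656117-83656366, minus strand: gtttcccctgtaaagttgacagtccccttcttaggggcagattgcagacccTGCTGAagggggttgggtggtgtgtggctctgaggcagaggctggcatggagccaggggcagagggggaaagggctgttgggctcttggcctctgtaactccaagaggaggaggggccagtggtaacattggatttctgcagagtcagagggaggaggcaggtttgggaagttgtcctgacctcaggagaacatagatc
Cd5l, chr3:87357631-87357880, plus strand: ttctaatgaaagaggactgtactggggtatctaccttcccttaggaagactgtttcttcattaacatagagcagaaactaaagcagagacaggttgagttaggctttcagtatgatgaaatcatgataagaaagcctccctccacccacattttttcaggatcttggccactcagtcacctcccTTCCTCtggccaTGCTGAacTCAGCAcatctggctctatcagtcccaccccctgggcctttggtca
Timd4, chr11:46810549-46810798, plus strand: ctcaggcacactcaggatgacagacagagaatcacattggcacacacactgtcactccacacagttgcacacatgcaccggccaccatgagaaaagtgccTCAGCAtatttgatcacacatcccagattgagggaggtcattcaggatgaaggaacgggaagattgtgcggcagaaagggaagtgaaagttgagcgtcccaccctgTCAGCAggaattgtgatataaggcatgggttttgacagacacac
Vsig4 held the PU.1 core 155 and 53 bases before its start, and Clec4f held the MAF motif 199 bases before. Cd5l held the PU.1 core on the reverse strand at 66 bases and the MAF motif at 54 and 46 bases, and Timd4 the MAF motif at 150 and 44 bases. Over 32851 promoters of the same length, 23.3% held the PU.1 core and 16.1% the MAF motif, against 5 and 4 of the 7 gate genes. A match is a run of letters and not a measured binding site.

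The gated macrophages were a small share of each library at E16.5 and a larger one at P3. They made up 3.28, 3.19, 2.59, 4.01 and 2.94% of passing barcodes in the 5 E16.5 libraries (620, 657, 753, 737 and 776 cells). At P3 they made up 8.67, 11.5, 6.07 and 5.03% (1865, 2018, 912 and 857 cells). Every P3 library lay above every E16.5 library, with means of 7.82% ± 2.89 (SD, n = 4) against 3.20% ± 0.53 (SD, n = 5) and a difference of 4.62 percentage points. The difference was not tested, since the share counts barcodes past cuts on the gate genes, and the gate genes were higher per UMI at P3, as given below. A share also does not tell more macrophages from fewer other cells. No share was read from the barcodes outside an erythroid gate (at least 5 UMIs of 8 erythroid genes and at most 1 C1q UMI), because its C1q limit keeps every macrophage out of it while other cells at E16.5 pass it. In Jag1+/+ replicate 1 only 1176 barcodes lay outside it, 620 of them macrophages, although the B-cell gate alone held 1785. Values for the erythroid gate at E16.5 therefore include other cells.

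**Figure D1:**
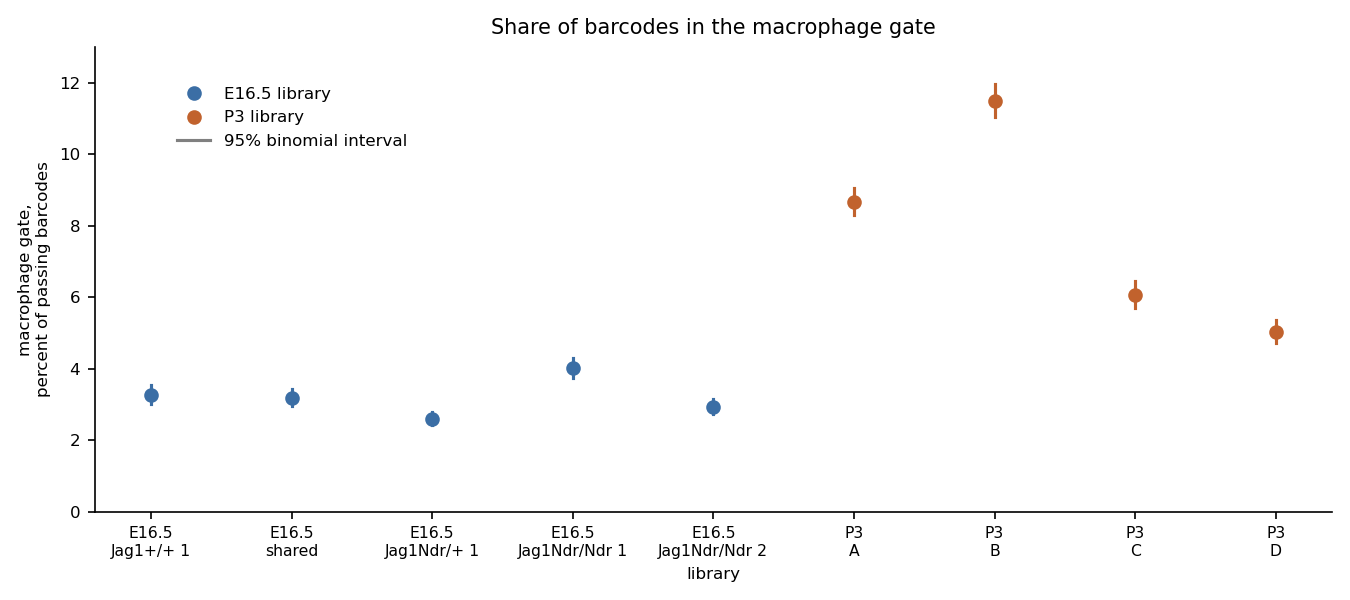
Percent of passing barcodes inside the macrophage gate in each of the 9 libraries, with 95% binomial intervals that cover counting error only. The 5 E16.5 libraries sit between 2.59% and 4.01% and the 4 P3 libraries between 5.03% and 11.5%, with A and B, whose genotype is unclear, highest.

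Depth differed between the stages in the gated cells. Their median UMI count was 7306, 7102, 7579, 8427 and 7676 in the E16.5 libraries and 6818, 5796, 5482 and 3787 in the P3 libraries, and their UMIs summed to 4050687 to 16764260 per library. The C1q cut was passed with more to spare at P3, where the median cell had 29 to 49 C1q UMIs, against 14 to 17 at E16.5. Level also differed with depth: at P3 median C1q was 9825 to 16595 CPM in cells below 4000 UMIs and 460 to 1459 CPM above 20000. At E16.5 it was 1866 to 3478 CPM and 920 to 3434 CPM. In the summed CPM the deepest cells weigh most. After every barcode of at least 2000 UMIs was thinned to 2000 UMIs before gating, which at P3 left 19800, 15552, 15024 and 13252 of 21504, 17553, 15024 and 17036 passing barcodes and at E16.5 all of them, the share was 5.68% ± 1.94 (SD, n = 4) at P3 and 1.56% ± 0.36 (SD, n = 5) at E16.5, which evens out the depth but not the level of the gate genes. At the edge of the gate Csf1r, the receptor for the macrophage growth factor CSF1 and no gate gene, stood at 43.9 to 182 CPM at E16.5 and 57.7 to 217 CPM at P3 in cells with 5 or 6 C1q UMIs. In cells left out with 3 or 4 C1q UMIs it stood at 19.8 to 70.3 CPM at E16.5 and 34.3 to 89.6 CPM at P3. Cells with at least 5 C1q UMIs and none of the other 5 gate genes, also left out, had 84.0 to 268 CPM at E16.5 and 192 to 565 CPM at P3.

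The label was checked against genes the gate did not use, after thinning each cell of at least 2000 UMIs to 2000 UMIs. Csf1r had a UMI in 33.2% to 53.0% (median 39.3%) at E16.5 and 61.2% to 76.7% (median 67.0%) at P3 of gated cells. In cells of a B-cell gate (at least 4 UMIs of Cd79a and Cd79b and 2 of B-cell precursor genes), which should lack it, the shares were 0.186% to 0.740% and 1.39% to 2.07%, and in a monocyte gate (at least 4 UMIs of Ly6c2, Ccr2 and F13a1) 11.3% to 20.1% and 20.7% to 32.9%. Fcna, a ficolin of liver macrophages, was found in 46.3% to 65.1% (median 58.4%) at E16.5 and 71.6% to 83.0% (median 75.4%) at P3 of gated cells. Vcam1, the adhesion molecule of islands, was found in 44.8% to 66.8% (median 55.4%) at E16.5 and 56.7% to 70.8% (median 57.5%) at P3, against 1.06% to 1.54% and 0.665% to 1.51% in the B-cell gate. Slc40a1, the iron exporter ferroportin, was found in 51.1% to 76.1% (median 61.6%) at E16.5 and 66.7% to 79.6% (median 69.8%) at P3. Macrophage markers were thus far above the B-cell background at both stages. Cd163, the receptor for haptoglobin-bound haemoglobin, was found in only 1.86% to 3.26% (median 2.28%) at E16.5 and 5.92% to 16.03% (median 11.1%) at P3.

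The 2 names in the label were not told apart by these counts. Of the 5 gate genes other than C1q, all 5 had a UMI in between 0.773% and 3.71% of thinned gated cells at E16.5, and in 15.6% to 28.1% of them at P3. Clec4f had a UMI in 17.1% to 39.5% (median 34.0%) at E16.5 and 64.8% to 74.4% (median 72.6%) at P3, and in 0.220% to 0.391% and 1.09% to 3.04% of cells in the B-cell gate. Vsig4 had one in 5.67% to 18.2% (median 9.96%) at E16.5 and 43.9% to 53.1% (median 47.4%) at P3. Marco was found in 50.5% to 66.9% (median 60%) at E16.5 and 72.0% to 91.5% (median 73.2%) at P3, Cd5l in 59.8% to 77.2% (median 71.6%) at E16.5 and 57.7% to 86.8% (median 72.6%) at P3 and Timd4 in 22.0% to 36.1% (median 26.8%) at E16.5 and 28.4% to 49.5% (median 38.1%) at P3. The shares for Clec4f, Vsig4 and Marco did not overlap between stages, while those for Cd5l and Timd4 did. Differences in shares near the gate follow from the rule and were not tested.

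RNA of erythroid cells was part of the gated sums, above all at E16.5. Every gated cell at E16.5 held at least 2 UMIs of erythroid genes other than globins, as did every cell of the B-cell gate, and at P3 38.0, 33.5, 50 and 41.5% of gated cells did. Of the summed UMIs, globins made up 18.8, 14.3, 28.6, 21.2 and 18.8% in the E16.5 libraries, against 14.99, 8.44, 12.2 and 10.7% in those of P3. The stages overlapped in this share. Cells with more than 30% globin made up 36.3, 15.1, 63.3, 45.2 and 34.3% of those gated at E16.5. At P3 they made up 24.2, 14.5, 20.8 and 17.7%. Globins took a median of between 19.5% and 39.2% at E16.5 and between 0.404% and 0.908% at P3 of a gated cell's UMIs. In the B-cell gate that median was between 15.6% and 29.1% at E16.5 and between 0.419% and 0.779% at P3, and in the neutrophil gate between 11.1% and 21.7% at E16.5 and between 0.297% and 0.547% at P3. Free RNA, attached erythroblasts and engulfed material cannot be told apart in these counts. Scrublet, a doublet caller, marked 5.48% to 23.1% of gated cells at E16.5 and 5.92% to 20.2% at P3, and marked cells stayed in.

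RNA of other cell types moved with stage as well. Some gated cells also passed the UMI cuts of another gate, its C1q limit aside. Of gated cells, 4.35% to 6.39% did so for the neutrophil gate in the E16.5 libraries, against 15.9, 11.3, 15.1 and 6.30% in those of P3. For the B-cell gate the shares were 2.84% to 5.56% against 7.23% to 14.6%. The endothelial gate had 6.51% to 8.98% against 1.52% to 3.62%, and the monocyte gate 1.03% to 5.16% against 0.347% to 0.804%. Summed over the 13 markers, neutrophil genes stood at 12193 to 16300.3 CPM at E16.5 and 16448 to 48965 CPM at P3, and the 12 erythroid genes other than globins at 2675 to 4221 CPM at E16.5 and 1067 to 1858 CPM at P3. Hepatocyte markers summed to 3421 to 11279 CPM at E16.5 and 1472 to 1968 CPM at P3, endothelial markers to 546 to 739.6 CPM at E16.5 and 308 to 448 CPM at P3 and B-cell markers to 249.8 to 389.9 CPM at E16.5 and 465 to 735 CPM at P3. Markers of T and NK cells summed to 7.12 to 50.4 CPM at E16.5 and 70.1 to 247 CPM at P3. Dendritic markers summed to 15.4 to 27.1 CPM at E16.5 and 18.2 to 21.7 CPM at P3. Several single markers of these cells, among them Cd3e, Xcr1, Cd209a and Ncr1, were at 0 in some libraries. The part of these RNAs in the differences below was not tested, apart from 3 repeats of the fit given beside some of the results. The repeats used cells gated by concentration (at least 2000 CPM of C1q and 1000 CPM of the other 5 genes), gated cells with at most 10% globin, and sums scaled by library size alone.

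The gate genes themselves are described without a test. C1qa stood at 1020.1, 1046, 1135, 770.4 and 929 CPM at E16.5 and 2941, 4261, 3357 and 3005 CPM at P3. Clec4f stood at 271, 274, 259.8, 271 and 134 CPM at E16.5 and 956, 1485, 1337 and 1239.7 CPM at P3, and Vsig4 at 151, 69.2, 73.5, 95.7 and 43.5 CPM at E16.5 and 448, 622, 430.1 and 570.5 CPM at P3. All P3 libraries were above all E16.5 libraries for these genes and for C1qb, C1qc and Marco, and Jag1Ndr/Ndr replicate 2 was low for Clec4f. Marco stood at 406 to 1027 CPM at E16.5 and 1699 to 4484 CPM at P3, with D highest. Cd5l stood at 1371, 1410.0, 824, 597 and 1217 CPM at E16.5 and 739, 1333, 1584 and 2345 CPM at P3, and Timd4 at 274, 239.7, 156, 143 and 218 CPM at E16.5 and 160.4, 259.9, 222 and 398 CPM at P3. For both, the stages overlapped and D was highest. The same genes were higher at P3 in cells that should lack them: Clec4f stood at 0.919 to 1.64 CPM at E16.5 and 5.62 to 12.5 CPM at P3 in the B-cell gate. The median log2 ratio of P3 to E16.5 over the 8 gate genes was 1.59 in the macrophage gate and 1.59 in the B-cell gate. Both ratios depend on the gate rules, since the macrophage gate requires these genes and the B-cell gate allows at most 1 C1q UMI. Nothing is read from their likeness.

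**Figure D2:**
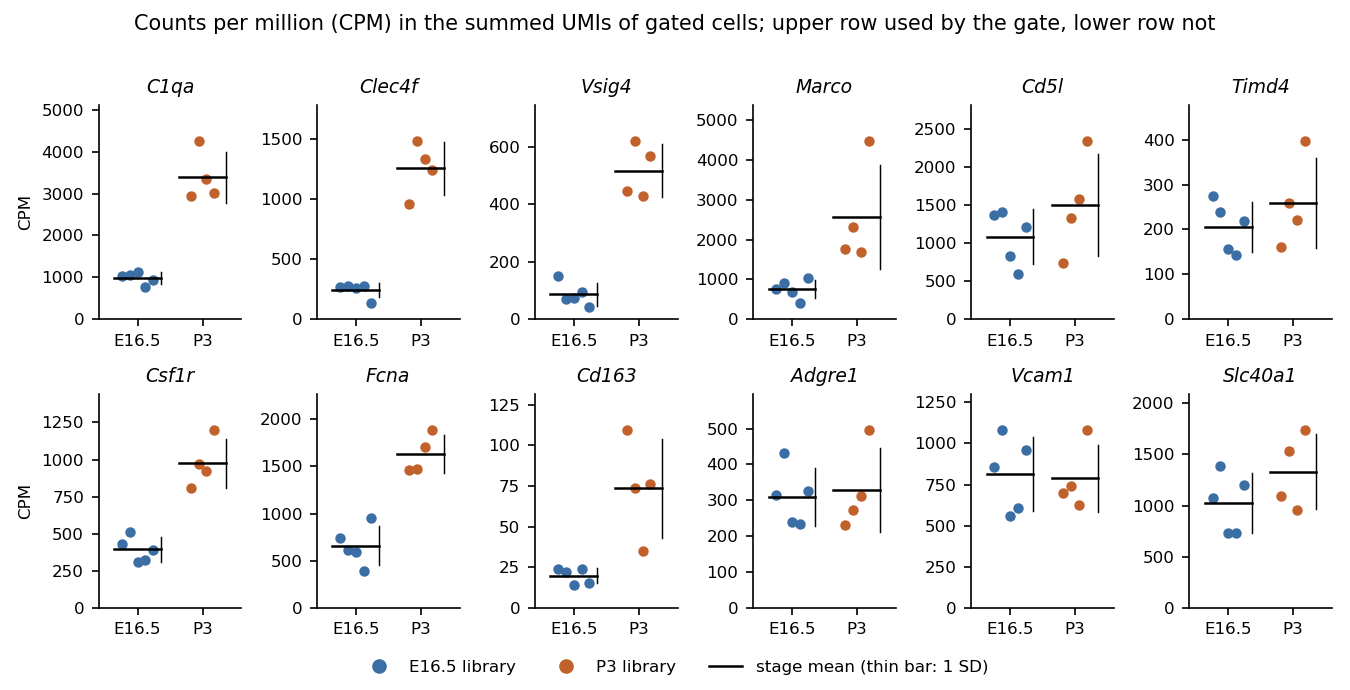
Levels in CPM in the summed macrophages of each library at E16.5 (5 points) and P3 (4 points), for the gate genes C1qa, Clec4f, Vsig4, Marco, Cd5l and Timd4 (upper panels) and for Csf1r, Fcna, Cd163, Adgre1, Vcam1 and Slc40a1 (lower panels), with the mean as a bar and the SD as a thin bar. The stages are apart for C1qa, Clec4f, Vsig4, Marco, Csf1r, Fcna and Cd163, and overlap for Cd5l, Timd4, Adgre1, Vcam1 and Slc40a1.

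The stages were then compared over all genes, with edgeR's quasi-likelihood test on the summed counts, TMM scaling and Benjamini-Hochberg adjustment at 0.05. Of 11778 genes tested, 24.5% were higher and 24.9% lower at P3, with a median log2 difference of 0.02, so that 49.3% passed in either direction. With library size alone in place of TMM the split was 3477 higher and 2057 lower and the median 0.17, a shift of all genes against which small differences should be read. Digestion, software version and gene list differ with stage and cannot be told apart from age. The lists below were read against these background shares, and their counts are descriptions.

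**Figure D3:**
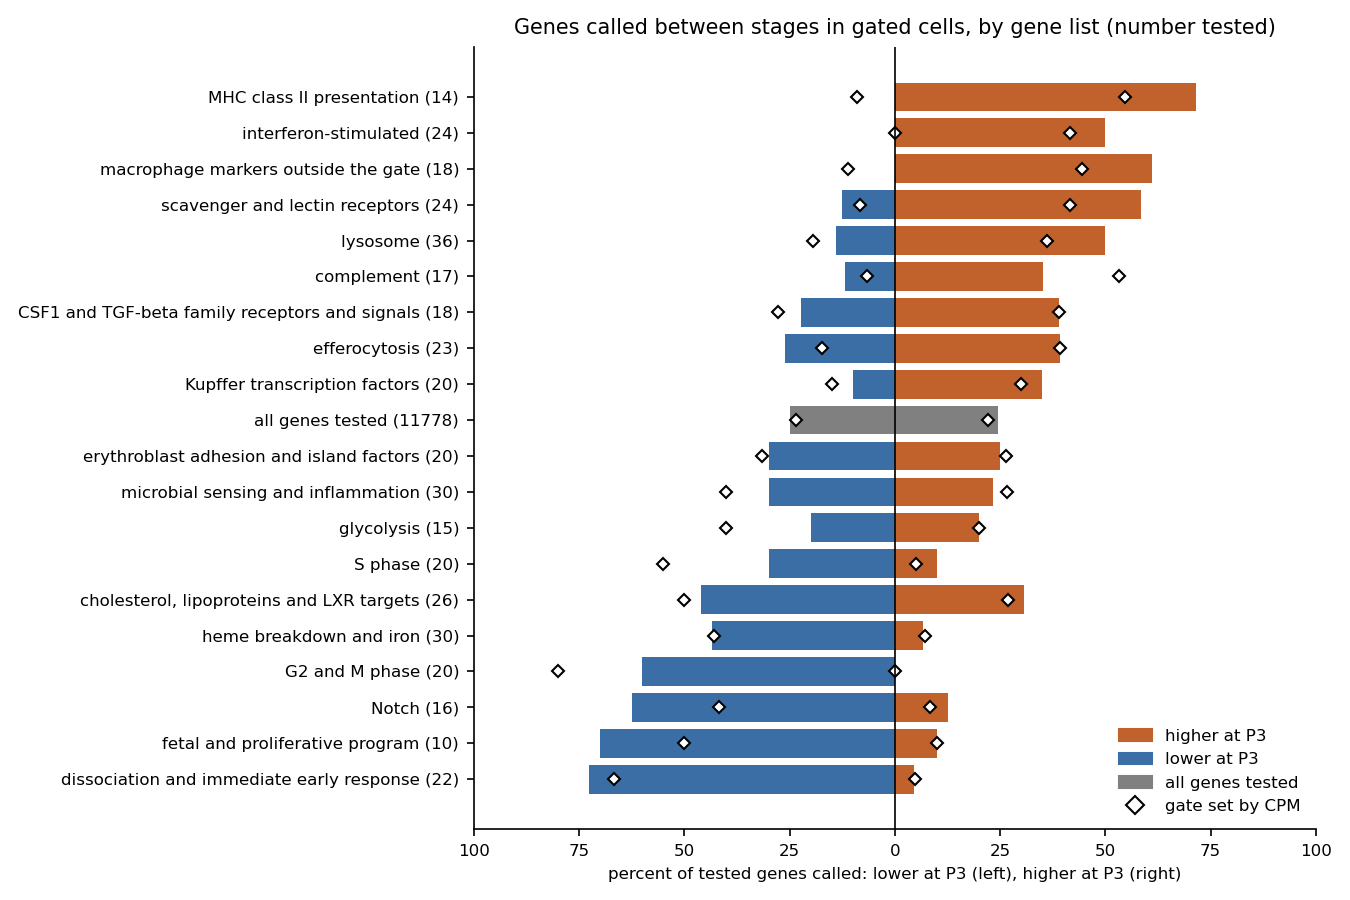
Percent of the tested genes of each list that were lower (left) or higher (right) at P3 in gated macrophages, with all genes tested in grey and the repeat on cells gated by concentration as diamonds. Interferon-stimulated, MHC class II and scavenger genes lie to the right, and G2 and M phase, immediate early and Notch genes to the left, of all genes.

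Macrophage markers outside the gate were higher at P3 or did not pass. Of 18 tested, 11 rose and none fell (median log2 difference 0.78). Csf1r stood at 429, 512, 312, 326 and 391 CPM at E16.5 and 807, 970.3, 920.0 and 1201 CPM at P3 (log2 difference 1.15, SE 0.13, adjusted p = 5.03e-05). Fcna stood at 745, 619, 592, 397 and 950.1 CPM at E16.5 and 1464, 1469, 1702 and 1890.0 CPM at P3 (log2 difference 1.14, SE 0.21, adjusted p = 0.00103). For both, all P3 libraries were above all E16.5 libraries. By depth, gated cells below 4000 UMIs held Csf1r at 117 to 347 CPM at E16.5 and 1366 to 1472 CPM at P3. From 10000 to 20000 UMIs the ranges overlapped, at 422 to 647 CPM and 555 to 715 CPM. Above 20000 UMIs, where D had 3 cells, they were 250 to 434 CPM and 84.3 to 285 CPM. Adgre1 in these deepest cells stood at 187 to 373 CPM and 7.67 to 82.3 CPM. The part of depth was not tested. Cd68, a lysosomal membrane protein of macrophages, rose, with 128 to 181 CPM at E16.5 and 225 to 350.3 CPM at P3 (0.78). Adgre1, which encodes F4/80, stood at 314, 433, 239.6, 234 and 326 CPM at E16.5 and 230.2, 273, 311 and 497 CPM at P3 and did not pass (adjusted p = 0.773), nor did Mrc1, the mannose receptor, at 212 to 397 CPM at E16.5 and 223 to 436 CPM at P3 (adjusted p = 0.645). In cells gated by concentration 8 of the 18 were higher and 2 lower, Vcam1 (-0.48, adjusted p = 0.0149) and Adgre1 (-0.39, adjusted p = 0.0391).

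Of 20 transcription factors of Kupffer cells, 7 rose and 2 fell (median 0.09). Spi1, which encodes PU.1, the factor that commits cells to the myeloid line, stood at 99.1, 110.1, 101, 95.5 and 103 CPM at E16.5 and 303, 409, 368 and 335 CPM at P3 (log2 difference 1.63, SE 0.12, adjusted p = 3.69e-06). Nr1h3, which encodes the oxysterol receptor LXRα needed for Kupffer cell identity, stood at 57.6, 89.2, 65.2, 47.8 and 77.8 CPM at E16.5 and 130.4, 208, 159 and 282 CPM at P3 (log2 difference 1.36, SE 0.20, adjusted p = 0.000296). Both were higher in every P3 library than in any E16.5 library. Irf7, an interferon response factor, had the largest difference, with 20.6 to 51.6 CPM at E16.5 and 95.1 to 447 CPM at P3 (log2 difference 2.98, SE 0.40, adjusted p = 0.000148). Irf8, a factor of the monocyte line, rose, with 75.3 to 124 CPM at E16.5 and 149 to 236 CPM at P3 (0.75). Zeb2, a repressor that maintains tissue macrophage identity, rose, with 165 to 312 CPM at E16.5 and 285 to 481 CPM at P3 (0.52). Spic, the heme-induced factor of red pulp macrophages, rose, with 91.4 to 133 CPM at E16.5 and 143 to 255 CPM at P3 (0.58), though not in cells gated by concentration (adjusted p = 0.0746) or with at most 5% mitochondrial UMIs (adjusted p = 0.0811).

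Cebpb, a factor of inflammatory activation, fell and stood at 278, 375, 318, 290.0 and 331 CPM at E16.5 and 223, 93.7, 86.0 and 92.4 CPM at P3 (log2 difference -1.48, SE 0.30, adjusted p = 0.00196). Library A was above the other P3 libraries and still below all of E16.5. Tfec, a macrophage factor, fell, with 34.5 to 57.4 CPM at E16.5 and 27.6 to 38.6 CPM at P3 (-0.54), which was lost with library size alone (adjusted p = 0.0907) and with at most 5% mitochondrial UMIs (adjusted p = 0.0595). The other 11 factors did not pass. Maf, a leucine zipper factor, stood at 311 to 546 CPM at E16.5 and 271 to 507 CPM at P3. Id1 and Id3, inhibitors of helix-loop-helix factors of which Id3 marks the Kupffer line, stood at 73.8 to 122 CPM at E16.5 and 89.1 to 112 CPM at P3 and at 140.4 to 167 CPM at E16.5 and 113 to 166 CPM at P3. Klf2, at 70.7 to 180.4 CPM at E16.5 and 163 to 264 CPM at P3, and Klf4, at 11.6 to 36.5 CPM at E16.5 and 15.9 to 19.8 CPM at P3, are zinc-finger factors. Runx1, at 27.3 to 67.5 CPM at E16.5 and 33.6 to 68.9 CPM at P3, and Mef2c, at 58.3 to 84.8 CPM at E16.5 and 42.0 to 82.2 CPM at P3, serve blood cell development. Nfe2l2, at 52.2 to 74.3 CPM at E16.5 and 70.8 to 87.8 CPM at P3, and Bach1, at 28.7 to 61.8 CPM at E16.5 and 40.0 to 67.4 CPM at P3, activate and repress antioxidant and heme genes. Rbpj, the DNA-binding partner of Notch, stood at 16.6 to 29.8 CPM at E16.5 and 23.5 to 35.0 CPM at P3, and Cebpa at 23.1 to 28.1 CPM at E16.5 and 15.6 to 37.3 CPM at P3.

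Among 18 tested receptors and signals of the CSF1 and TGF-beta families, 7 rose and 4 fell (median 0.32). Tgfb1, the ligand TGF-beta 1, rose and stood at 85.4, 99.2, 67.7, 80.8 and 86.6 CPM at E16.5 and 286, 385, 234 and 260.0 CPM at P3 (log2 difference 1.65, SE 0.14, adjusted p = 9.65e-06). The ratio was alike in the monocyte, neutrophil, B-cell and endothelial gates, at log2 1.41 to 1.73. Csf2rb, the shared receptor chain for GM-CSF and IL-3, rose, with 48.2 to 94.8 CPM at E16.5 and 154 to 178 CPM at P3 (1.07), and Il4ra, the IL-4 receptor, with 12.0 to 19.2 CPM at E16.5 and 33.6 to 54.2 CPM at P3 (1.22). Bmp2, a BMP ligand, fell, with 33.6 to 56.9 CPM at E16.5 and 6.93 to 14.5 CPM at P3 (log2 difference -2.34, SE 0.23, adjusted p = 2.32e-05), and Smad6, an inhibitor of BMP signalling, with 13.4 to 20.9 CPM at E16.5 and 4.69 to 10.9 CPM at P3 (-1.36). In the endothelial gate Bmp2 had a median of 223 CPM at E16.5 and 311 CPM at P3, so its level in macrophages was far below that of endothelial cells. Csf1, the ligand of Csf1r, stood at 4.98 to 8.48 CPM at E16.5 and 2.57 to 4.89 CPM at P3 and fell (-1.06), a call lost with C and D as the only P3 libraries and with the homozygous label as a term.

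Uptake receptors were more often higher than lower at P3. Of 24 scavenger and lectin receptors tested, 14 rose and 3 fell (median 0.63). In cells gated by concentration 10 rose, 2 fell and 12 did not pass (median 0.34). The list's median log2 ratio was 0.80 in the macrophage gate and 0.62, 0.29, 0.44 and 0.79 in the monocyte, neutrophil, B-cell and endothelial gates. Cd163 stood at 24.2, 21.8, 14.1, 23.6 and 15.4 CPM at E16.5 and 109, 73.5, 35.3 and 76.1 CPM at P3 (log2 difference 1.76, SE 0.28, adjusted p = 0.000439), and Fcgrt, the neonatal receptor that recycles IgG, at 176, 202, 221, 162 and 191 CPM at E16.5 and 606, 585, 612 and 465 CPM at P3 (log2 difference 1.41, SE 0.17, adjusted p = 7.9e-05). Neither gene overlapped between stages. Fcgr4, an activating IgG receptor, rose, with 12.9 to 43.3 CPM at E16.5 and 52.7 to 89.3 CPM at P3 (1.01), but not in cells gated by concentration (adjusted p = 0.0853). Lyve1, a hyaluronan receptor, fell, with 107 to 148 CPM at E16.5 and 40.5 to 70.1 CPM at P3 (log2 difference -1.65, SE 0.19, adjusted p = 6.9e-05), Cd36, a fatty acid and lipoprotein receptor, with 81.7 to 136 CPM at E16.5 and 23.1 to 52.6 CPM at P3 (-1.79), and Stab1, a clearance receptor, with 61.9 to 88.6 CPM at E16.5 and 40.6 to 53.5 CPM at P3 (-0.75). The endothelial gate held more of all 3, with Lyve1 at 686 to 1039 CPM at E16.5 and 819 to 2660.4 CPM at P3, and the Stab1 call was lost in cells gated by concentration (adjusted p = 0.634).

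Genes for adhesion to erythroblasts and for island function were split. Of 20 tested, 5 rose and 6 fell (median 0.00), close to the background shares. Vcam1 stood at 859, 1080.3, 557, 610.0 and 962 CPM at E16.5 and 701, 738, 627 and 1083 CPM at P3 and did not pass (adjusted p = 0.394). Maea, the erythroblast macrophage protein, stood at 30.3 to 50.1 CPM at E16.5 and 41.1 to 50.6 CPM at P3 and did not pass either (adjusted p = 0.78). Itgb5, an integrin chain that binds the bridging protein Mfge8 on dying cells, rose and stood at 78.1, 80.5, 56.3, 54.3 and 70.1 CPM at E16.5 and 123, 126.3, 113 and 131 CPM at P3 (log2 difference 0.72, SE 0.11, adjusted p = 0.00034). Icam1, an adhesion molecule for leukocytes, rose, with 23.6 to 36.9 CPM at E16.5 and 34.3 to 68.9 CPM at P3 (0.68), though not with at most 5% mitochondrial UMIs (adjusted p = 0.0778). Siglec1, the sialic acid receptor of island macrophages, rose, with 21.7 to 34.9 CPM at E16.5 and 23.3 to 64.5 CPM at P3 (0.67, adjusted p = 0.0265), a call lost in cells gated by concentration (adjusted p = 0.294) and without any 1 of Jag1+/+ replicate 1, Jag1Ndr/Ndr replicate 2, B or D.

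Epor, the erythropoietin receptor, fell and stood at 65.0, 86.6, 48.4, 66.0 and 77.1 CPM at E16.5 and 20.0, 17.3, 20.9 and 15.6 CPM at P3 (log2 difference -2.02, SE 0.15, adjusted p = 4.15e-06). All P3 libraries were below all E16.5 libraries. In the erythroid gate Epor stood at 36.9 to 81.5 CPM at E16.5 and 26.6 to 35.9 CPM at P3. Alcam, an adhesion molecule, fell, with 13.8 to 24.5 CPM at E16.5 and 3.51 to 6.56 CPM at P3 (-1.84), a call lost in cells gated by concentration (adjusted p = 0.0788), and Emp1, a membrane protein, fell, with 1.38 to 4.62 CPM at E16.5 and 0.458 to 1.23 CPM at P3 (-1.91). Emp1 was too low to be tested in cells gated by concentration and lost its call with the homozygous label as a term.

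Genes for the uptake of dying cells went both ways. Axl, a receptor tyrosine kinase that recognises such cells through bridging ligands, rose and stood at 217, 262, 151, 159.7 and 191 CPM at E16.5 and 352, 327, 405 and 528 CPM at P3 (log2 difference 0.89, SE 0.15, adjusted p = 0.000587). Mertk, its relative, rose and stood at 113, 125, 69.0, 60.3 and 134 CPM at E16.5 and 134, 192, 165 and 272 CPM at P3 (log2 difference 0.77, SE 0.22, adjusted p = 0.0127), a call lost with at most 5% mitochondrial UMIs (adjusted p = 0.0562). The stages did not overlap for Axl and overlapped for Mertk. Pros1, a bridging ligand of both, fell and stood at 15.2, 30.1, 13.5, 11.2 and 19.8 CPM at E16.5 and 9.55, 7.27, 7.33 and 7.66 CPM at P3 (log2 difference -1.27, SE 0.24, adjusted p = 0.00118), and Gas6, the other ligand, fell, with 15.5 to 24.3 CPM at E16.5 and 12.5 to 15.8 CPM at P3 (-0.63). Mfge8 fell, with 9.10 to 12.5 CPM at E16.5 and 4.69 to 6.62 CPM at P3 (-0.95), a call lost in cells gated by concentration (adjusted p = 0.388). Over all 23 efferocytosis genes tested, 9 rose and 6 fell (median 0.22). Dock2, an activator of Rac in leukocytes, rose, with 41.1 to 70.1 CPM at E16.5 and 84.2 to 146 CPM at P3 (0.95), and Ucp2, a mitochondrial carrier linked to continued uptake, with 356 to 434 CPM at E16.5 and 685 to 1092 CPM at P3 (0.95).

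Lysosomal genes were more often higher. Of 36 tested, 18 rose and 5 fell (median 0.39). The same list had a median log2 ratio of 0.51 in the macrophage gate and 0.43 to 0.56 in the monocyte, neutrophil, B-cell and endothelial gates, a difference that was not tested. Tfeb, the master regulator of lysosomal genes, rose and stood at 6.64, 8.92, 5.99, 7.47 and 6.45 CPM at E16.5 and 19.1, 23.4, 27.2 and 31.1 CPM at P3 (log2 difference 1.65, SE 0.14, adjusted p = 9.65e-06). Ctss, the protease cathepsin S, stood at 361, 391, 333, 328 and 318 CPM at E16.5 and 844, 943, 922 and 948 CPM at P3 (log2 difference 1.24, SE 0.11, adjusted p = 1.21e-05). Both sets of P3 values lay above all E16.5 values. Npc2, a cholesterol carrier of the lysosome, rose, with 334 to 390.4 CPM at E16.5 and 605 to 995 CPM at P3 (1.03), and Laptm5, a lysosomal membrane protein of blood cells, with 258 to 421 CPM at E16.5 and 571 to 805 CPM at P3 (0.92). Manba, a mannosidase, fell, with 6.87 to 12.5 CPM at E16.5 and 4.12 to 5.77 CPM at P3 (-1.18). Lgmn, the protease legumain, fell, with 501 to 819 CPM at E16.5 and 399 to 657 CPM at P3 (-0.59), and Lamp2, a lysosomal membrane protein, with 149 to 209.5 CPM at E16.5 and 130.3 to 186 CPM at P3 (-0.41). Both calls were lost with library size alone (adjusted p = 0.0665 and 0.21), that of Lamp2 also under 3 other alternatives, and that of Lgmn also in cells with at most 10% globin and without any 1 of Jag1+/+ replicate 1, the shared library, Jag1Ndr/Ndr replicate 2, B, C or D.

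Genes for heme and iron were more often lower at P3. Of 30 tested, 2 rose and 13 fell (median -0.39), and in gated cells with at most 10% globin 4 rose and 10 fell. The list's median log2 ratio was -0.24 in the macrophage gate and -0.38, -0.56, -0.36 and -0.16 in the monocyte, neutrophil, B-cell and endothelial gates. The 2 that rose act on heme or on the product of its breakdown. Slc48a1, which carries heme out of the phagolysosome, stood at 137, 154, 110.1, 122 and 147 CPM at E16.5 and 203, 237, 226 and 272 CPM at P3 (log2 difference 0.65, SE 0.10, adjusted p = 0.000303). Blvra, biliverdin reductase, stood at 85.0, 101, 90.3, 98.7 and 90.6 CPM at E16.5 and 159, 196, 171 and 191 CPM at P3 (log2 difference 0.78, SE 0.11, adjusted p = 0.000175). The stages did not overlap for either. Hmox1, the heme oxygenase between the 2 in the pathway, stood at 1018, 1229, 752, 660.0 and 1402 CPM at E16.5 and 1597, 1674, 1337 and 1533 CPM at P3 and did not pass (adjusted p = 0.0599), though it did under 7 of 24 alternatives, among them library size alone (adjusted p = 0.0268) and cells with at most 10% globin (adjusted p = 0.0413). Slc40a1 stood at 1072, 1391, 732, 729 and 1199 CPM at E16.5 and 1094, 1534, 956 and 1741 CPM at P3 (adjusted p = 0.343), and its stages overlapped.

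Iron genes that fell included some with a role in red cell precursors. Tfrc, the transferrin receptor by which cells import iron, stood at 689, 915, 387, 476 and 843 CPM at E16.5 and 81.0, 136, 154 and 193 CPM at P3 (log2 difference -2.38, SE 0.25, adjusted p = 3.66e-05). In the erythroid gate it stood at 336 to 925 CPM at E16.5 and 166 to 535 CPM at P3, and in the B-cell gate at 282 to 599.6 CPM at E16.5 and 77.8 to 209.7 CPM at P3. The B-cell ranges did not overlap either, while the erythroid ones did. Heph, a copper oxidase that works with iron export, fell, with 2.22 to 4.77 CPM at E16.5 and 0.136 to 0.716 CPM at P3 (-3.28), Abcg2, a porphyrin exporter, with 129.5 to 270.0 CPM at E16.5 and 53.9 to 78.0 CPM at P3 (-1.69), Pcbp2, an iron chaperone, with 249 to 459 CPM at E16.5 and 122 to 209.7 CPM at P3 (-1.10), and Ncoa4, the receptor that delivers ferritin for breakdown, with 177 to 305 CPM at E16.5 and 95.9 to 179 CPM at P3 (-1.10).

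**Figure D4:**
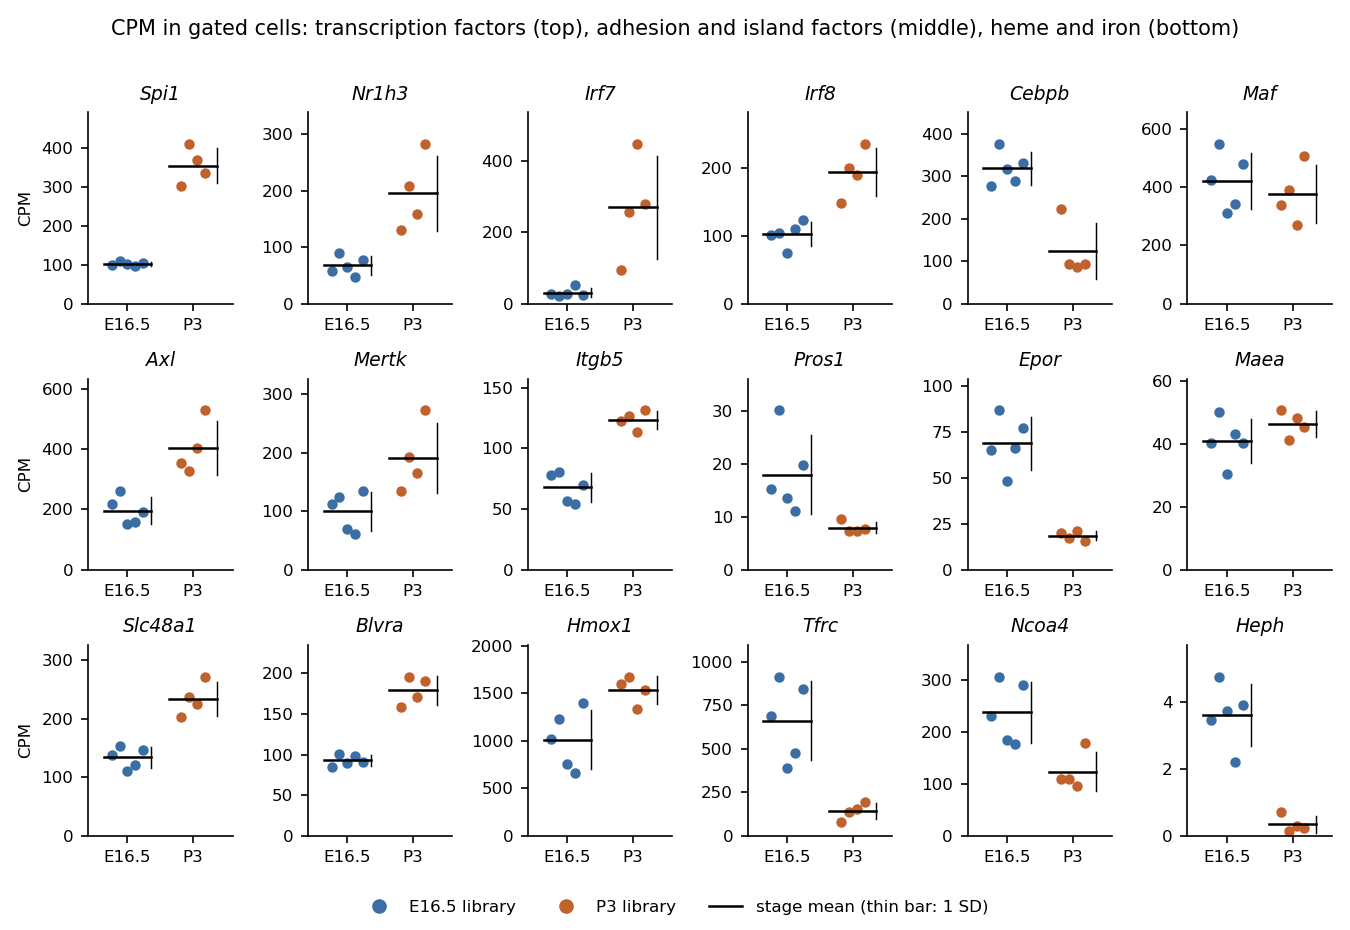
Levels in CPM, per library at E16.5 (5 points) and P3 (4 points), of the transcription factors Spi1, Nr1h3, Irf7, Irf8, Cebpb and Maf (top), of Axl, Mertk, Itgb5, Pros1, Epor and Maea (middle), and of Slc48a1, Blvra, Hmox1, Tfrc, Ncoa4 and Heph (bottom), with the mean as a bar and the SD as a thin bar. Tfrc, Epor and Heph are lower and Spi1, Nr1h3 and Blvra higher in every P3 library than in any E16.5 library, while Maf and Maea overlap.

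Cholesterol and lipid genes fell more often than they rose. Of 26 tested, 8 rose and 12 fell (median -0.37). Known targets of Nr1h3 went both ways. Abca1, the cholesterol exporter, fell and stood at 323, 322, 183, 164 and 310.0 CPM at E16.5 and 96.1, 135, 88.7 and 203 CPM at P3 (log2 difference -1.16, SE 0.24, adjusted p = 0.00238). Scd2, a fatty acid desaturase, fell, with 127 to 217 CPM at E16.5 and 35.0 to 75.6 CPM at P3 (-2.16) and Scd1, its relative, with 27.4 to 49.5 CPM at E16.5 and 7.64 to 18.8 CPM at P3 (-2.04). Pltp, the phospholipid transfer protein, rose and stood at 128, 94.1, 67.2, 61.2 and 118 CPM at E16.5 and 238, 296, 237 and 284 CPM at P3 (log2 difference 1.34, SE 0.19, adjusted p = 0.000182). Plin2, which coats lipid droplets, rose, with 94.1 to 117 CPM at E16.5 and 218 to 307 CPM at P3 (1.26), and Apoe, the apolipoprotein, with 1891 to 3033 CPM at E16.5 and 2708 to 7145 CPM at P3 (0.86), with B and D high. Of the fatty acid binding proteins, Fabp4 fell, with 127 to 411 CPM at E16.5 and 20.3 to 47.0 CPM at P3 (-3.19) and Fabp5 with 583 to 1265 CPM at E16.5 and 231 to 461 CPM at P3 (-1.69), while Fabp7, a Kupffer cell gene, rose, with 2.02 to 8.61 CPM at E16.5 and 10.4 to 22.3 CPM at P3 (1.24), a call lost with at most 5% mitochondrial UMIs (adjusted p = 0.307), with C and D as the only P3 libraries and with the homozygous label as a term.

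Complement components outside the gate rose in 6 and fell in 2 of 17 genes tested (median 0.37). Cfp, properdin, which stabilises the alternative pathway, rose and stood at 343, 362, 272, 254 and 315 CPM at E16.5 and 590.0, 763, 596 and 736 CPM at P3 (log2 difference 0.96, SE 0.12, adjusted p = 9e-05). C6, a component of the membrane attack complex, rose, with 12.0 to 36.4 CPM at E16.5 and 46.7 to 105 CPM at P3 (1.44), C5ar1, the receptor for C5a, with 9.90 to 15.8 CPM at E16.5 and 20.5 to 51.3 CPM at P3 (1.34), and C4b with 1.38 to 4.12 CPM at E16.5 and 6.44 to 11.1 CPM at P3 (1.80), the last not in cells with at most 10% globin (adjusted p = 0.0987). Cd59a, an inhibitor of membrane attack, fell, with 49.9 to 89.0 CPM at E16.5 and 14.7 to 27.3 CPM at P3 (log2 difference -1.91, SE 0.23, adjusted p = 8.28e-05).

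Genes of antigen presentation and of the interferon response were higher at P3 or did not pass. Of 14 MHC class II genes tested, 10 rose and none fell (median 1.10). Cd74, the invariant chain, rose and stood at 43.0, 77.7, 64.7, 147 and 47.4 CPM at E16.5 and 319, 358, 253 and 198 CPM at P3 (log2 difference 1.73, SE 0.34, adjusted p = 0.00164), with Jag1Ndr/Ndr replicate 1 highest at E16.5 and still below D. Ciita, the class II regulator, rose, with 1.38 to 2.73 CPM at E16.5 and 3.401 to 7.41 CPM at P3 (1.51), H2-DMb2 with 1.11 to 1.92 CPM at E16.5 and 3.70 to 5.19 CPM at P3 (1.60) and H2-Ob, which tunes peptide loading, with 0.499 to 1.62 CPM at E16.5 and 2.69 to 4.69 CPM at P3 (1.45). With at most 5% mitochondrial UMIs the calls of Cd74 (adjusted p = 0.0562) and Ciita (adjusted p = 0.0753) were lost. The list's median log2 ratio was 1.00 in the macrophage gate and 1.42, 1.49, 2.50 and 0.64 in the monocyte, neutrophil, B-cell and endothelial gates, and Cd74 stood at 9.17 to 27.6 CPM at E16.5 and 933 to 1685 CPM at P3 in the B-cell gate. The part of B-cell RNA was not tested.

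Of 24 interferon-stimulated genes tested, 12 rose and none fell (median 1.00). Isg15, a ubiquitin-like modifier, rose and stood at 21.6, 13.4, 42.9, 82.6 and 15.4 CPM at E16.5 and 77.9, 134, 367 and 146 CPM at P3 (log2 difference 2.14, SE 0.58, adjusted p = 0.01). Oasl2 rose, with 4.61 to 24.2 CPM at E16.5 and 24.5 to 123 CPM at P3 (2.45) and Zbp1, a sensor of nucleic acids, with 0.461 to 14.0 CPM at E16.5 and 8.17 to 60.2 CPM at P3 (2.44). C was highest for Isg15, Oasl2, Zbp1 and Irf7 at P3, and Jag1Ndr/Ndr replicate 1 was highest at E16.5, where its Isg15 and Zbp1 values overlapped with P3. The list's median log2 ratio was 1.16 in the macrophage gate and 1.24, 1.30, 1.16 and 1.29 in the monocyte, neutrophil, B-cell and endothelial gates.

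Genes of microbial sensing and inflammation were split, with 7 higher and 9 lower of 30 tested (median -0.02, or 0.13 with library size alone). Several chemokines fell. Ccl3 stood at 65.9, 78.0, 64.5, 70.7 and 67.0 CPM at E16.5 and 10.6, 10.7, 13.6 and 15.3 CPM at P3 (log2 difference -2.65, SE 0.13, adjusted p = 2.62e-07), and Ccl4, its neighbour in function, at 71.0, 58.0, 77.5, 66.1 and 53.1 CPM at E16.5 and 9.61, 12.2, 12.7 and 12.6 CPM at P3 (log2 difference -2.66, SE 0.19, adjusted p = 3.44e-06). No P3 library reached the E16.5 range. Ccl2, which draws monocytes, fell, with 38.3 to 73.8 CPM at E16.5 and 6.87 to 16.7 CPM at P3 (-2.24) and Cxcl1, which draws neutrophils, with 14.1 to 33.2 CPM at E16.5 and 2.21 to 6.91 CPM at P3 (-2.71). Il1b, the cytokine IL-1 beta, rose, with 6.92 to 16.9 CPM at E16.5 and 30.5 to 52.6 CPM at P3 (log2 difference 1.56, SE 0.24, adjusted p = 0.000352), Cxcl16, a membrane-bound chemokine and scavenger receptor, with 15.6 to 29.5 CPM at E16.5 and 46.6 to 78.8 CPM at P3 (1.54), and Tlr8, an RNA sensor, with 3.60 to 5.38 CPM at E16.5 and 9.61 to 17.7 CPM at P3 (1.43). Ccl5, a chemokine for T cells, rose, with 0.576 to 13.8 CPM at E16.5 and 17.8 to 61.6 CPM at P3 (2.61), a call lost with at most 5% mitochondrial UMIs (adjusted p = 0.0669).

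Genes induced by dissociation and stress were lower at P3 in 16 and higher in 1 of 22 tested (median -0.94). Zfp36, which destabilises cytokine messages, fell and stood at 278, 311, 259, 249 and 227 CPM at E16.5 and 71.5, 45.8, 27.0 and 43.7 CPM at P3 (log2 difference -2.62, SE 0.26, adjusted p = 2.4e-05). Socs3, a feedback inhibitor of cytokine signalling, fell, with 20.0 to 32.1 CPM at E16.5 and 0.741 to 3.12 CPM at P3 (-3.35), Atf3 with 38.9 to 54.2 CPM at E16.5 and 5.25 to 26.2 CPM at P3 (-1.80) and Fos with 424 to 583 CPM at E16.5 and 242 to 319 CPM at P3 (-1.01). Hspa8, a constitutive chaperone, was the 1 that rose, with 846 to 1324 CPM at E16.5 and 1491 to 2152 CPM at P3 (0.73), and Hspa1b, an inducible one, fell, with 3.11 to 11.3 CPM at E16.5 and 0.458 to 4.35 CPM at P3 (-1.92). The list's median log2 ratio was -0.71 in the macrophage gate and -0.83, -0.55, -0.20 and -1.20 in the monocyte, neutrophil, B-cell and endothelial gates. TrypLE was used at E16.5 only and cannot be told apart from stage here, for these genes and for the chemokines above.

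Cell cycle genes were mostly lower at P3 or did not pass. Of 20 genes of G2 and M phase, 12 fell and none rose (median -0.50), and of 20 S phase genes 6 fell and 2 rose (median -0.26). For G2 and M phase the median log2 ratio was -0.34 in the macrophage gate and -0.05, 0.26, 0.04 and -0.25 in the monocyte, neutrophil, B-cell and endothelial gates. Cks2, a cofactor of the cell cycle kinases, fell and stood at 382, 391, 375, 383 and 369 CPM at E16.5 and 126.02, 113, 153 and 106 CPM at P3 (log2 difference -1.77, SE 0.15, adjusted p = 1.09e-05), and Cdk1, the mitotic kinase, at 143, 135, 126.2, 156 and 139 CPM at E16.5 and 77.7, 50.9, 90.4 and 40.5 CPM at P3 (log2 difference -1.25, SE 0.23, adjusted p = 0.00117). Both were lower in every P3 library. Ube2c fell, with 432 to 474 CPM at E16.5 and 217 to 319 CPM at P3 (-0.91) and Nusap1 with 130.3 to 215 CPM at E16.5 and 81.6 to 125 CPM at P3 (-0.89). Rrm2, for nucleotide supply, fell, with 145 to 225 CPM at E16.5 and 84.1 to 176 CPM at P3 (-0.87) and Mcm2, of the replicative helicase, with 68.2 to 119 CPM at E16.5 and 43.1 to 86.4 CPM at P3 (-0.85). Erythroid RNA was lower at P3 as well, as given above, and its part in these differences was not tested. At P3, after thinning, 46.7% to 68.2% of macrophages with at least 2 erythroid UMIs and 27.2% to 40.4% of those with at most 1 held at least 2 UMIs of the G2 and M phase list. At E16.5 the shares were 89.5% to 96.4% and 70.6% to 100%. For the S phase list the P3 shares were 33.3, 40.9, 50 and 57.8% with at least 2 erythroid UMIs and 33.9, 31.7, 46.8 and 41.9% with at most 1. At E16.5 they were 78.2, 84.8, 70.9, 72.5 and 84.4% and 54.3, 57.9, 58.8, 62.3 and 63.6%, higher with more erythroid UMIs in each library, as in B, C and D but not in A. The proliferation gene Mki67 had a UMI in 48.9% to 72.1% (median 63.9%) at E16.5 and 22.0% to 42.6% (median 32.9%) at P3 of thinned macrophages, and in 57.0% to 73.7% and 41.3% to 67.2% of B cells at the 2 stages, so no cycling of macrophages was read from these counts.

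Of 10 genes of the fetal program, 7 fell and 1 rose (median -0.91). The list's median log2 ratio was -0.70 in the macrophage gate and -1.19, -0.32, -0.97 and -0.72 in the monocyte, neutrophil, B-cell and endothelial gates. Igf2, a fetal growth factor, fell, with 4.15 to 11.2 CPM at E16.5 and 0.305 to 1.56 CPM at P3 (log2 difference -2.85, SE 0.46, adjusted p = 0.000486), Myc with 31.5 to 46.8 CPM at E16.5 and 13.1 to 28.4 CPM at P3 (-1.18), and Lin28b, a fetal regulator of let-7, with 6.24 to 12.8 CPM at E16.5 and 3.94 to 6.42 CPM at P3 (-1.14). Igf2bp3, an RNA-binding protein, rose, with 33.5 to 53.2 CPM at E16.5 and 55.5 to 84.2 CPM at P3 (0.61). Igf2bp2 fell, with 5.35 to 9.44 CPM at E16.5 and 2.09 to 5.19 CPM at P3 (-1.24), a call lost in cells gated by concentration (adjusted p = 0.0526). Glycolysis genes were split, with 3 higher and 3 lower of 15 (median -0.10, or 0.07 with library size alone). Slc2a1, the glucose transporter that red cell precursors also carry, fell and stood at 181, 198, 117, 100 and 238 CPM at E16.5 and 13.4, 19.1, 10.7 and 14.8 CPM at P3 (log2 difference -3.65, SE 0.25, adjusted p = 2.89e-06). Pfkp, a phosphofructokinase, rose, with 5.24 to 10.9 CPM at E16.5 and 16.6 to 26.4 CPM at P3 (1.10), Gpi1 with 113 to 136 CPM at E16.5 and 218 to 306 CPM at P3 (0.98) and Pkm with 172 to 212 CPM at E16.5 and 304 to 334 CPM at P3 (0.62).

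Notch genes were mostly lower at P3, with 10 lower and 2 higher of 16 tested (median -0.77). In cells gated by concentration 5 were lower and 1 higher of 12 tested (median -0.19). With library size alone 7 were lower and 2 higher of 16 (median -0.63), and in cells with at most 10% globin 8 and 2 of 16 (median -0.78). The list's median log2 ratio was -0.52 in the macrophage gate and -0.03, -0.16, -0.20 and -0.35 in the monocyte, neutrophil, B-cell and endothelial gates, a difference between gates that was not tested. Notch2, a receptor, fell and stood at 26.7, 37.1, 24.0, 23.6 and 32.5 CPM at E16.5 and 12.8, 20.7, 9.93 and 18.3 CPM at P3 (log2 difference -1.05, SE 0.19, adjusted p = 0.000865). Maml1, a coactivator, fell, with 9.61 to 17.7 CPM at E16.5 and 5.04 to 7.34 CPM at P3 (-1.19) and Nrarp, a Notch target, with 3.7997 to 7.98 CPM at E16.5 and 1.23 to 3.36 CPM at P3 (-1.59). The ligands were near the limit of detection: Jag1 fell, with 1.31 to 3.08 CPM at E16.5 and 0 to 0.747 CPM at P3 (-2.69) and Dll4 with 3.87 to 5.999 CPM at E16.5 and 0.741 to 1.68 CPM at P3 (-2.23), while the endothelial gate held Jag1 at 6.32 to 39.2 CPM at E16.5 and 0 to 11.1 CPM at P3 and Dll4 at 25.3 to 48.2 CPM at E16.5 and 13.8 to 27.7 CPM at P3. Dtx4, a Notch regulator, rose, with 2.00 to 5.23 CPM at E16.5 and 5.96 to 9.38 CPM at P3 (0.88), a call lost under 3 alternatives. Jag1, Dll4 and Nrarp were too low to be tested in cells gated by concentration.

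Several of the largest differences were not particular to macrophages. Atp6v0c, a subunit of the proton pump that acidifies lysosomes, stood at 2.91, 2.92, 1.75, 2.22 and 3.22 CPM at E16.5 and 620.3, 729.8, 716 and 838 CPM at P3 (log2 difference 7.96, SE 0.16, adjusted p = 6.49e-11). In the monocyte gate its median was 2.46 CPM at E16.5 and 713 CPM at P3. Timm23, a mitochondrial import protein, rose, with 2.08 to 3.45 CPM at E16.5 and 101 to 125 CPM at P3 (5.35), and Ptp4a1 and Fam220a fell, with 54.6 to 92.4 CPM at E16.5 and 1.01 to 2.22 CPM at P3 (-5.98) and 114 to 156 CPM at E16.5 and 7.41 to 9.03 CPM at P3 (-4.07). In the B-cell gate Timm23 stood at 2.96 to 3.31 CPM at E16.5 and 128 to 157 CPM at P3, Ptp4a1 at 46.2 to 87.6 CPM at E16.5 and 0.325 to 0.932 CPM at P3 and Fam220a at 123 to 173 CPM at E16.5 and 4.78 to 9.72 CPM at P3, so the step between stages was alike. The 2 stages were counted with different gene lists, 31053 genes at E16.5 and 22597 at P3, and such a change in annotation cannot be told apart from stage. Fam173a, Rpa3 and BC004004 also differed (-3.43, -3.23 and 2.57).

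Other large differences were in genes of other cell types. Immunoglobulin genes rose, with Igkc with 0.923 to 23.4 CPM at E16.5 and 283 to 418 CPM at P3 (4.92) and Iglc1 with 0 to 8.18 CPM at E16.5 and 51.5 to 107 CPM at P3 (5.10), and so did the B-cell genes Ms4a1 (4.46) and Ltb (2.37). In the B-cell gate Igkc stood at 49.0 to 295 CPM at E16.5 and 2165 to 3787 CPM at P3. Genes of secreted proteins, of which Serpina6 and Spp2 are made by hepatocytes, fell, Serpina6 with 26.9 to 112 CPM at E16.5 and 0 to 0.153 CPM at P3, Spink1 with 37.7 to 85.9 CPM at E16.5 and 0.247 to 1.43 CPM at P3 and Spp2 with 20.6 to 73.2 CPM at E16.5 and 4.20 to 5.43 CPM at P3. Serpinh1, a collagen chaperone, fell, with 26.8 to 48.6 CPM at E16.5 and 2.24 to 6.41 CPM at P3 (-3.29), Mest, an imprinted fetal gene, with 159.8 to 235 CPM at E16.5 and 11.7 to 28.6 CPM at P3 (-3.66), and Mt2, a metallothionein, with 511 to 1109 CPM at E16.5 and 53.8 to 86.8 CPM at P3 (-3.65).

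Pik3ap1 and Slc8a1 differed widely too. Pik3ap1, an adaptor that links Toll-like receptors to PI3 kinase, rose and stood at 3.60, 4.77, 4.99, 5.55 and 6.79 CPM at E16.5 and 69.4, 85.0, 91.5 and 106 CPM at P3 (log2 difference 3.91, SE 0.18, adjusted p = 1.53e-07). The B-cell gate held it at 5.86 to 9.61 CPM at E16.5 and 69.9 to 78.7 CPM at P3. Slc8a1, a sodium and calcium exchanger, rose and stood at 4.57, 5.38, 4.37, 2.93 and 6.10 CPM at E16.5 and 49.2, 63.2, 51.2 and 108 CPM at P3 (log2 difference 3.68, SE 0.24, adjusted p = 2.17e-06), and stood at 1.27 to 2.85 CPM at E16.5 and 17.8 to 33.7 CPM at P3 in the monocyte gate. For both, the lowest P3 library was above the highest E16.5 library.

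The genotype comparison at E16.5 set Jag1Ndr/Ndr (2 libraries) against the 3 libraries without a homozygous label, since the shared library may be Jag1+/+ or Jag1Ndr/+. The macrophage share was 3.48% ± 0.76 (SD, n = 2) in Jag1Ndr/Ndr and 3.02% ± 0.37 (SD, n = 3) in the others, given as values with no test because the gate genes set it. No gene passed in edgeR's quasi-likelihood test out of 12312 tested (0%), while DESeq2 called 1, Cacna1a. Before adjustment 160 genes were below 0.05 in the quasi-likelihood test, a smaller part of the 12312 than the 0.05 that chance alone gives. In data simulated from these libraries the same test recovered 100 of 100 genes changed by log2 2 and 92 of 100 changed by log2 1, with 6 false calls. Cacna1a, given below, differed by more than log2 2 in the real data and still did not pass. The absence of calls therefore does not exclude differences of these sizes.

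The 5 genes with the smallest p are given by value. Cacna1a, a calcium channel subunit on chromosome 8, stood at 8.58, 8.15 and 9.49 CPM in the libraries without a homozygous label and 0.909 and 0.921 CPM in Jag1Ndr/Ndr (log2 difference -3.26, SE 0.35, adjusted p = 0.172). Ocel1, also on chromosome 8, stood at 20.6, 20.3 and 17.6 CPM and 10.7 and 8.18 CPM (-1.04). Both homozygous libraries were below the other 3 for these genes. At P3, C, labelled homozygous, was the lowest of the 4 libraries for both, with Cacna1a at 7.70, 14.5, 2.60 and 21.5 CPM and Ocel1 at 35.5, 67.0, 26.3 and 71.9 CPM. The lymphocyte enzyme gene Ada stood at 8.72, 8.92 and 7.24 CPM and 14.7 and 16.4 CPM, Runx2, a factor of bone and lymphoid cells, at 2.91, 4.31 and 1.50 CPM and 7.37 and 11.3 CPM, and 3830403N18Rik, on the X chromosome, at 0.969, 0.461 and 0.874 CPM and 3.94 and 3.91 CPM. Their homozygous libraries were both above the others, but at P3 library C was within or below the range of the other libraries for each.

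**Figure D5:**
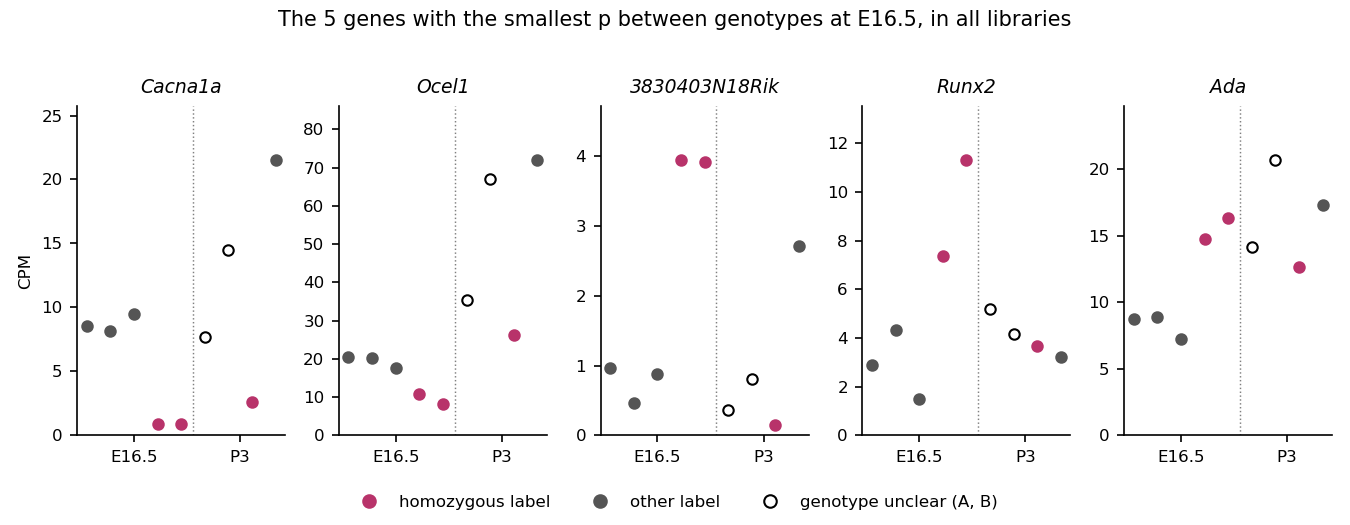
Levels in CPM of the 5 genes with the smallest p for genotype at E16.5, in the summed macrophages of all 9 libraries, coloured by label, with A and B as open points because their genotype is unclear. The Jag1Ndr/Ndr libraries at E16.5 sit below the others for Cacna1a and Ocel1 and above them for 3830403N18Rik, Runx2 and Ada.

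Counts of gene direction by genotype are given beside the background, in which 49.3% of genes had a positive difference (higher in Jag1Ndr/Ndr), 4.11% had both homozygous libraries above the other 3 and 4.51% had both below. The 8 gate genes are left out of these counts, since the cells were picked by them. Of the 18 macrophage markers outside the gate 3 were positive (median -0.12). Of 36 lysosomal genes 3 were positive (median -0.14), of 24 scavenger receptors 3 (-0.13), of 20 island factors 5 (-0.17) and of 30 heme and iron genes 15 (0.01). Both homozygous libraries were below the other 3 for 1 of the markers outside the gate, 1 lysosomal gene, 2 scavenger receptors, 2 island factors and 1 heme and iron gene. The same held for 5 of 10 endothelial markers and 7 of 23 dissociation and immediate early genes. Jag1Ndr/+ replicate 1 was about as low as Jag1Ndr/Ndr replicate 1 for Vcam1 and Slc40a1, for which Jag1Ndr/Ndr replicate 2 lay within the range of the others. Summed, the markers outside the gate stood at 5862, 6806, 4303, 3994 and 6614 CPM, and the scavenger receptors at 3048, 3060, 2542, 2198 and 3144 CPM. For both sums Jag1Ndr/Ndr replicate 1 was lowest and replicate 2 within or above the range of the others. The part of 1 library in the counts was not tested. Of 25 interferon-stimulated genes 22 were positive (0.57). Jag1Ndr/Ndr replicate 1 set that list apart, with Irf7 at 51.6 CPM against 20.6 to 27.3 CPM in the other E16.5 libraries, and only 1 gene of the list had both homozygous libraries above the others. S phase genes were positive in 19 of 20 (0.20), and endothelial markers in 0 of 10 (-0.32). Markers of other cells were shifted too, with hepatocyte markers positive in 0 of 10 (-0.34), mesenchymal in 0 of 10 (-0.65) and neutrophil in 11 of 13 (0.12). Immediate early genes were positive in 3 of 23 (-0.18). Jag1 itself stood at 3.04, 3.08 and 3.00 CPM and 1.31 and 1.96 CPM (log2 difference -0.91). A missense allele does not remove the message, so this count is no check of the labels.

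At P3 the cells of C and D occur under 1 genotype label only, 1 library each, although C is the rest of a file that also holds barcodes of A, so its label is less sure. Their values are given with exact 95% Poisson intervals that cover counting error only and with no test. CPM values here are per library total over the whole P3 gene list, and so differ slightly from those above, which are over the genes in both gene lists. Of 3250 genes with at least 50 CPM in either, intervals were apart with C higher for 20.4% and with D higher for 31.7%, and 14.2% differed by more than 1.5-fold. Marco stood at 1699 CPM in C (95% interval 1667 to 1730.5) and 4483 CPM in D (4418 to 4549), Timd4 at 222 CPM in C (95% interval 211 to 233) and 398 CPM in D (379 to 418) and Csf1r at 919.7 CPM in C (95% interval 897 to 943) and 1201 CPM in D (1167 to 1235). Vcam1 stood at 627 CPM in C (95% interval 608 to 646) and 1083 CPM in D (1051 to 1115), and Slc40a1 at 956 CPM in C (95% interval 932 to 979.8) and 1741 CPM in D (1700.3 to 1782). All of these were higher in D, while C1qa, at 3356 and 3004 CPM, and Clec4f, at 1336 and 1239 CPM, were higher in C. Of the 8 gate genes the intervals were apart with C higher for 3 and with D higher for 4. Markers outside the gate were higher in D for 15 and in C for 1 of 17 genes (median log2 ratio of C to D -0.68), island factors for 9 and 0 of 11, and lysosomal genes for 17 and 1 of 30. Gated cells were deeper in C, with a median of 5482 and a minimum of 2400 UMIs, against 3787 and 1005 in D. In depth bins starting at 1000, 4000, 6000, 10000 and 20000 UMIs, Csf1r stood at 1421, 1325, 1094, 555 and 285 CPM in C. In D it stood at 1472, 1579, 1047, 704 and 84.3 CPM. The part of depth in these differences was not tested.

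The opposite side held interferon genes, higher in C for 14 and in D for none of 20 (median 0.51). Isg15 stood at 367 CPM in C (95% interval 353 to 382) and 146 CPM in D (135 to 158), and Irf7 at 446 CPM in C (95% interval 430.4 to 463) and 279 CPM in D (263 to 296). Neutrophil markers moved the same way, with 12 of 12 higher in C, and so did S phase genes, with 8 higher in C and none in D of 16. Gated cells that also passed the UMI cuts of the neutrophil gate made up 15.1% of macrophages in C and 6.30% in D, and the part of neutrophil RNA was not tested.

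The largest folds between C and D were partly in genes with near-identical copies. Gm16867 had 397 UMIs in C and 0 in D, where the interval's upper end was 0.911 CPM against 60.6 CPM in C, and Rpl21, Gm10260 and Gm11361 were higher in C by 45.1-fold, 46.1-fold and 20.6-fold. These ribosomal protein gene copies, and Hba-a2, 17.6-fold higher in C, can share reads with their copies and are uncertain. Cd300ld, an activating receptor of myeloid cells, stood at 50.5 CPM in C (95% interval 45.2 to 56.3) and 4.94 CPM in D (3.02 to 7.63). Cd300e, another member of that family, stood at 8.55 CPM in C (95% interval 6.46 to 11.1) and 180.2 CPM in D (167 to 194). The 2 relatives differed in opposite directions. Pf4 and Ppbp, platelet chemokines, were 5.48-fold and 24.2-fold higher in D, C1qtnf12 5.57-fold, Lars2 4.71-fold and the mitochondrial mt-Atp8 5.47-fold. In A and B Cd300e stood at 91.1 and 13.7 CPM, and Cd300ld at 4.35 and 72.0 CPM.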

How the data were processed

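Single-cell RNA of livers (10x Genomics) was deposited for 12 samples as gene by barcode matrices. The deposited values are UMI counts, whole numbers, made by the authors; the submitters' processing notes name Cell Ranger 2.1.1, mm10, Seurat and R 4.1.2, while the file headers name software 3.1.0 at E16.5 and 3.0.2 at P3. No cell annotation was used here.

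Barcodes of 1000 UMIs or more, of which no more than 15% were mitochondrial, were gated on raw UMIs, and counts were summed per library. Members, gene lists and the rule for named genes were chosen with earlier results of these data known. The genes named by rule are, in each comparison over all genes, up to 12 per direction past the threshold with the largest log2 difference, at least 20 CPM on average and groups that do not overlap, and up to 4 per direction in each list, or the 2 with the smallest p, as well as all gate genes and Kupffer transcription factors; some genes under this rule are not reported here. Other genes, among them Vcam1, Maea, Siglec1, Hmox1, Slc40a1, Ncoa4, Gas6, Apoe, Fos, Notch2, Cd68, Adgre1 and Mrc1, were chosen after their values were seen. Sums were tested with edgeR 4.0.16 (quasi-likelihood, TMM, filterByExpr, Benjamini-Hochberg, R 4.3.3). The stage test used genes in both gene lists, and the genotype test the whole E16.5 gene list. DESeq2 1.42.0 was an alternative, as were another scaling, no filter, other gates, and leaving out each library. On simulated data the stage test recovered 100 of 100 genes at log2 1 with 10 false calls. The planned permutation tests of the share are not reported, since the gate genes set it. The other gates need at most 1 C1q UMI. The neutrophil gate needs at least 10 UMIs of Camp, Ngp and Ltf and 10 of S100a8 and S100a9, and the endothelial gate at least 4 of Kdr, Stab2, Oit3 and Gpr182. Doublets were called with Scrublet in scanpy 1.11.5 and kept. Depth is given with the shares, and intervals cover counting error only. The samples labelled Jag1Ndr/+ replicate 2 and Jag1Ndr/Ndr replicate 2 at P3 were not used, since the barcodes of the first recur in library B and those of the second in A and B. Promoters came from RefSeq, and C1qa had no entry.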

Additional observations from a re-analysis of the deposited data

Results flagged for a closer look

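In 21 of 330 groups of 4 or 5 libraries, 1 library lay apart from the others of its stage by Dixon's criterion. Chance alone gives about 1 in 20 for independent groups. These genes share libraries and many were named from these data, so the criterion served as a screen and not as a test. The groups also held the gate genes and the gated share, which the gate rule sets. At E16.5, Jag1Ndr/Ndr replicate 1 stood apart in 6 genes: Irf7 at 51.6 CPM, Tipin at 134 CPM, Fam220a at 156 CPM, Iglc1 at 8.18 CPM and Ciita at 2.73 CPM were high, and Fabp7 at 2.02 CPM was low. Jag1Ndr/Ndr replicate 2 was low for Ms4a7 at 10.1 CPM and high for Timm23 at 3.45 CPM. It was also low for the gate gene Clec4f at 134 CPM, against 259.8 to 274 CPM in the other 4 libraries. That is given as a value only, since the gate rule uses the gene. Jag1Ndr/+ replicate 1 was high for Alcam at 24.5 CPM, C4b at 4.12 CPM and Spink1 at 85.9 CPM, and low for Myc at 31.5 CPM, and its macrophages had the highest hepatocyte marker sum of the E16.5 libraries, 11279 CPM. The shared library was high for C5ar1 at 15.8 CPM.

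At P3, library A was high for Cebpb at 223 CPM, Pros1 at 9.55 CPM and Rpa3 at 17.2 CPM and low for Ccl4 at 9.61 CPM. B was high for Il4ra at 54.2 CPM, C was high for the endothelial and macrophage gene Lyve1 at 70.1 CPM, and D was low for Socs3 at 0.741 CPM.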

How the results depend on the processing

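For the genotype at E16.5, DESeq2 and the fit with no filter on low counts each called 1 gene, Cacna1a. Leaving out 1 library gave 0 to 1 calls, the 1 being Ifi44l without Jag1Ndr/Ndr replicate 2, a fit that takes the spread of the 1 homozygous library left to be that of the other group. The genotype difference in macrophage share was -0.0827 percentage points without Jag1Ndr/Ndr replicate 1 and ran from -0.0827 to 0.997 with each library left out. The stage difference in share was 3.39 to 5.55 percentage points with each library left out and 2.89 with at most 5% mitochondrial UMIs, against 4.62. Counted outside the erythroid gate the values were -0.506 for genotype and -35.1 for stage, but that count is void, since the gate's C1q limit exempts macrophages and other E16.5 cells pass the gate. Stage calls numbered 5054 to 5538 with each library left out, 2433 to 2736 of them higher and 2579 to 2837 lower. The stage calls higher at P3 fell to 1900 with at most 5% mitochondrial UMIs, where fewer cells and 10530 genes were tested. That setting also ended the calls of Mertk, Icam1, Cd74, Ciita, Ccl5, Spic, Tfec and Fabp7. With C and D as the only P3 libraries, 2217 genes were higher and 2319 lower. Over all named genes and alternatives for stage, 3512 values kept their side of the threshold, 99 lost the call and 25 gained it. No gene with a call changed sign, while some without one did, such as Adgre1 and Slc40a1. A set limited to cells with at most 1 erythroid UMI was not run, since it leaves 0 cells at E16.5 before thinning.

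Deviations of same-numbered libraries of the 2 genotype groups had correlations of 0.27, -0.10 and 0.07. The 2 homozygous libraries mirror each other in this check (correlation -1), since they alone make up their group. It therefore cannot tell whether same-numbered libraries share more than a number. With the replicate block 0 genes were called for genotype, and 2877 higher and 3014 lower, 5891 in all, for stage.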

Other observations

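A set of genes enriched in the gated macrophages was drawn up after their values were seen: at least 3 times the level of the highest other gate and at least 20 CPM at the stage with the higher mean. It held 134 genes outside the gate. A gene low at E16.5 could enter through P3 alone, so the genes below are given by value, with no test between stages. The first 5 were picked as high at P3 and the last as low. Ccr3, a chemokine receptor best known from eosinophils, stood at 3.32, 3.38, 0.749, 3.13 and 0.691 CPM at E16.5 and 27.3, 32.1, 12.4 and 17.3 CPM at P3. The highest of the other gates held it at 0.729 CPM. Oplah, which recycles oxoproline to glutamate, stood at 4.43, 6.92, 4.62, 3.43 and 4.84 CPM and 17.8, 24.4, 20.3 and 36.1 CPM. Kcnj10, a potassium channel, stood at 11.6, 24.8, 11.7, 6.87 and 27.7 CPM and 39.1, 64.9, 45.0 and 90.6 CPM. Lair1, an inhibitory collagen receptor, stood at 24.6, 35.2, 21.7, 18.9 and 22.8 CPM and 57.6, 77.8, 65.2 and 87.7 CPM, and Tlr12, a sensor of protozoan profilin, at 10.9, 13.4, 5.99, 8.99 and 8.52 CPM and 18.3, 24.3, 26.7 and 36.1 CPM. Slc7a8, an amino acid transporter, stood at 131, 136, 93.3, 72.8 and 144 CPM and 58.2, 115, 55.0 and 76.1 CPM. Abca1 and Lgmn, of the same set, are given above.

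By genotype at E16.5, 27 of the 134 had a positive difference (higher in Jag1Ndr/Ndr), with a median of -0.13, against 49.3% of all genes tested, and none passed. These genes are not independent, and the 2 homozygous libraries were unlike. Macrophage markers outside the gate summed to 3994 CPM in Jag1Ndr/Ndr replicate 1 and 6614 CPM in replicate 2, against 4303 to 6806 CPM in the others. The part of 1 library in the count was not tested.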
